A study of Mus musculus with 39 samples.

Results

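The interferon-stimulated antiviral genes are 41 mouse genes taken by symbol from the deposited count tables. They are 41 of the 24537 genes in the table that holds kidney, liver and lung and of the 52508 in the table that holds skin. By role they comprise nucleic acid sensors (Ifih1, Ddx58, Dhx58, Zbp1), oligoadenylate synthetases (Oas1a, Oas2, Oas3, Oasl1, Oasl2), IFIT proteins and the kinase PKR (Ifit1, Ifit2, Ifit3, Eif2ak2), genes of ISG15 conjugation (Isg15, Usp18, Herc6, Trim25), PARP proteins and their partner (Parp9, Parp14, Dtx3l), the Mx GTPases (Mx1, Mx2), viperin and its neighbour (Rsad2, Cmpk2), membrane restriction factors (Bst2, Ifitm3), nuclear body genes (Pml, Sp100), Schlafen genes and a relative in restriction (Slfn2, Slfn5, Slfn8, Samd9l) and 9 others (Isg20, Ifi44, Ifi35, Ifi27l2a, Rtp4, Xaf1, Epsti1, Trim30a, Lgals3bp). Oasl1 and Oasl2, synthetase-like by name, are counted with the synthetases below.

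Interferons are secreted proteins that cells release when they sense foreign or misplaced nucleic acid. Type I interferons bind the receptor pair IFNAR1 and IFNAR2, the kinases JAK1 and TYK2 are activated, and a transcription factor complex that holds STAT2 and IRF9 binds the interferon-stimulated response element (ISRE), while type II interferon acts mainly at the gamma-activated site (GAS). The genes switched on in this way block viral entry, replication and release, and some of them, such as Usp18, damp the signal itself.

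All mice were Prf1-/- on C57BL/6, which lack perforin, the pore-forming protein of cytotoxic lymphocytes, and the controls carried the same deletion, so no group with intact perforin was compared here. The young group was 3 months old and untreated. Both old groups were treated from 18 months on 2 consecutive days in each of 2 months and analysed at 20 months, the vehicle group with vehicle and the ABT-737 group with ABT-737 at 25 mg/kg, an inhibitor of BCL-2 family survival proteins. The treatment label of ABT-737 replicates 4 and 5 reads ABT-738 and ABT-739, and they were placed by their titles. Kidney, liver and lung each had 4 young, 3 vehicle and 3 ABT-737 libraries and skin had 3 of each. Vehicle and young mice differ in age and in handling, which cannot be told apart, and "with age" below is short for vehicle against young and holds both.

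RNA of whole tissue was read from transcript 3′ ends by bulk MARS-seq, and the 39 libraries held between 223957 and 3842808 counts, with liver the shallowest. Of the 41 genes, 40 passed the filter on low counts in lung, 34 in kidney, 29 in skin and 16 in liver, and Oas1a, with at most 4 counts in any library, passed in none. A gene could pass through a single group where it was high, which partly sets its direction against that group. Levels below are CPM, counts scaled to library size with TMM factors, a gene is called at a Benjamini-Hochberg adjusted p under 0.05 in edgeR's quasi-likelihood test, every adjusted p below is from that test unless another is named, and p-values measure the spread between these libraries. Skin was counted against other gene models, so its levels were not compared with the other tissues. Prf1 itself had 1 to 11 counts in the kidney libraries, 0 to 4 in liver, 1 to 68 in lung and 15 to 169 in skin. Where the 3′ reads lie relative to the deleted part was not given in the sources used here, so these counts do not check the genotype. Markers of the labelled tissue summed to at least 10240 CPM in every kidney library (tubule), 42550 in liver (hepatocyte), 28050 in lung (alveolar and club cell) and 10550 in skin (keratinocyte). Markers of other tissues were not absent. Skin ABT-737 replicate 4, the lowest ABT-737 skin for 24 of 29 members, had 176, 50 and 44 counts of the alveolar markers Sftpc, Sftpb and Sftpa1. Other skins had at most 4, 1 and 1. The tubule marker Umod had 30, 6 and 15 counts in the ABT-737 skins and 0 in other skins. Their part in the results was not tested.

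The promoters of 4 members are shown because these genes recur in the results and each window holds a match to the ISRE, that of Bst2 to the GAS as well. Each window runs from 250 bases before to 50 bases after the RefSeq start on GRCm38.p6, 5′ to 3′ on the strand of the gene, with matches to the ISRE core GAAANNGAAA or the GAS core TTCNNNGAA, on either strand, in capitals. Isg15 lies at chr4:156200769-156201068 on the minus strand, Bst2 at chr8:71537423-71537722 on the minus strand, Ifit3 at chr19:34583279-34583578 on the plus strand and Rsad2 at chr12:26456403-26456702 on the minus strand.
Isg15: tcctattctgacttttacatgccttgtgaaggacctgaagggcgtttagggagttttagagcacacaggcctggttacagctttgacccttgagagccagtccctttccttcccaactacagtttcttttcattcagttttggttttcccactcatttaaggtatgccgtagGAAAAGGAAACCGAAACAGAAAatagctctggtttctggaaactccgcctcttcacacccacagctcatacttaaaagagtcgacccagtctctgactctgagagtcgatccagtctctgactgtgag
Bst2: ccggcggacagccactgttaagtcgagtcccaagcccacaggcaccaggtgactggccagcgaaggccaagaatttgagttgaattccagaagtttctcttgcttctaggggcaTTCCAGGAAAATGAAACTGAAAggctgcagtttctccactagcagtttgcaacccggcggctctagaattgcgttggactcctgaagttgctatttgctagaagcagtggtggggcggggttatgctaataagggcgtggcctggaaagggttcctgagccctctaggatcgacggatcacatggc
Ifit3: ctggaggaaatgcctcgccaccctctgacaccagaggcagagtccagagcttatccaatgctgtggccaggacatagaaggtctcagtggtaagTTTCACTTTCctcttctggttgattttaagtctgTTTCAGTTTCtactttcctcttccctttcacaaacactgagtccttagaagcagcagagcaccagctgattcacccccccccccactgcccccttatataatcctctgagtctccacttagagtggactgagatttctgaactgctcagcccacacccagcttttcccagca
Rsad2: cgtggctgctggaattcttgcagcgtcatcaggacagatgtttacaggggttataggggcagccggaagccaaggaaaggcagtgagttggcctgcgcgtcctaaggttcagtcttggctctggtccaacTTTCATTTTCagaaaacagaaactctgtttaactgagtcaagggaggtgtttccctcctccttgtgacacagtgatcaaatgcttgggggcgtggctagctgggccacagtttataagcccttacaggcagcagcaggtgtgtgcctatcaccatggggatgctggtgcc
Isg15 had 3 overlapping ISRE matches, the nearest ending 56 bases before the start. Bst2 had 2 overlapping ISRE matches, the nearer ending 114 bases before the start, and 1 GAS match that overlaps the farther of them. Ifit3 had 2 separate ISRE matches, the nearer 112 bases before the start, and Rsad2 had 1 at 110 bases.

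RefSeq promoter windows were matched for 31 of the 41 genes, in 37 windows. No window was matched for Oas2, Mx1, Mx2, Usp18, Dhx58, Rtp4, Zbp1, Parp9, Parp14 and Ifi27l2a. An ISRE match lay in 16 of the 37 windows (43.2%), against 3.44% of all 32851 windows of the same length. A GAS match lay in 7 (18.9%), against 8.30% of all windows. A stricter ISRE that also asks for T or C at the second gap base was found in 12 (32.4%), against 1.05%. Of the members called lower with ABT-737 in kidney that had a window, 5 of 8 held an ISRE match, and of those not called 6 of 18 did. In liver the same counts were 1 of 3 and 3 of 8. For the rise with age they were 9 of 21 called and 2 of 5 not called in kidney, and 8 of 17 and 5 of 13 in lung. These shares were not tested. A match is a run of letters and says nothing of binding.

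Family members lie together in the genome. Ifit1, Ifit2 and Ifit3 sit between 34550694 and 34650009 on chromosome 19, and all 5 oligoadenylate synthetase members sit on chromosome 5. Chromosome 11 holds 8 members, among them Slfn2, Slfn5 and Slfn8. Reads from near copies in the Ifit, Oas, Slfn and Ifitm families could have been split in counting, so single values of these genes are uncertain. Parp9 and Dtx3l overlap by 558 bases on opposite strands, Slfn5 overlaps Slfn5os and Pml overlaps Mir6385, and whether counting used strand was not given in the sources used here.

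Across the 41 genes, the mean of log2(CPM + 1) was higher in each vehicle library than in each young library of the same tissue. In kidney the 4 young libraries stood between 3.01 and 3.22, the vehicle libraries at 4.50, 4.62 and 4.09 and the ABT-737 libraries at 3.14, 3.21 and 3.50. The kidney vehicle and ABT-737 libraries did not overlap. In liver the young libraries stood between 2.84 and 3.01, vehicle at 3.17, 4.75 and 3.84 and ABT-737 at 2.42, 2.43 and 3.27. The lowest liver vehicle library, replicate 3, also had the fewest counts and lay below ABT-737 replicate 5. Its mean over all genes tested was 5.28, against 5.78 and 5.79 in vehicle replicates 4 and 5. Its hepatocyte markers were uneven, with Alb at 8907 CPM against 33480 and 31520 and Apoa1 at 16980 against 12200 and 14890. The part of these traits in its level was not tested. In lung young libraries stood between 4.09 and 4.22, vehicle between 5.50 and 5.59 and ABT-737 at 4.41, 4.81 and 5.46. Lung ABT-737 replicate 5 thus lay close under the vehicle libraries. In skin the young libraries stood at 2.03, 2.28 and 2.61, vehicle at 3.13, 3.63 and 4.62 and ABT-737 at 3.02, 2.40 and 2.99. In these bulk samples fewer cells of a type and less RNA per cell cannot be told apart.

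**Figure D1:**
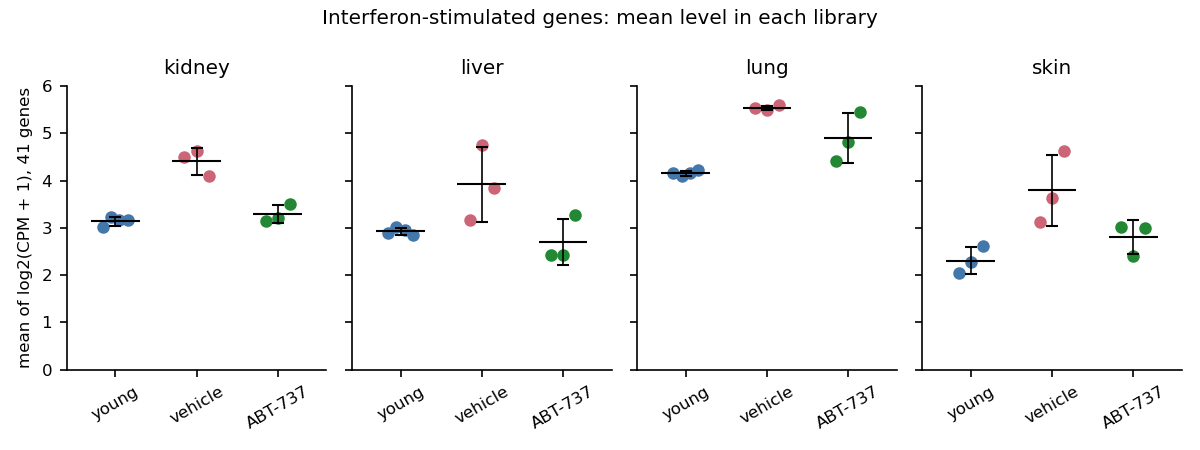
Mean of log2(CPM + 1) over the 41 interferon-stimulated genes (vertical axis) for each library (points) in young, vehicle and ABT-737 mice of 4 tissues, with the group mean (line) and SD (bar). The 3 vehicle libraries lie above the ABT-737 libraries in kidney, lung and skin, and in liver vehicle replicate 3 (3.17) lies below ABT-737 replicate 5 (3.27); skin levels are not comparable with the other panels.

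The plot of mean levels by library shows a single order of group means in kidney, lung and skin, with young lowest and vehicle highest, and in liver ABT-737 lowest. Gene by gene, the vehicle mean was the highest of the 3 groups for 33 of 40 members tested in lung, 32 of 34 in kidney, 28 of 29 in skin and 15 of 16 in liver. The ABT-737 mean lay between the other means for 33 of these members in lung, 21 in kidney, 23 in skin and 9 in liver, and below both for 0, 11, 5 and 6. Single libraries lead their groups: vehicle replicate 4 was the highest vehicle library for 21 of 34 members in kidney and 12 of 16 in liver, vehicle replicate 5 for 26 of 29 in skin, and ABT-737 replicate 5 was the highest ABT-737 library for 19 of 34 in kidney, 10 of 16 in liver and 30 of 40 in lung.

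In kidney the antiviral program was broadly higher in old vehicle mice than in young mice and lower after ABT-737. Of the 34 members tested, 29 rose from young to vehicle, where 7.75% of all genes tested were called higher, and none was called lower. The median log2 fold change was 1.39, against 0.01 over all genes. With ABT-737, 14 of 34 members fell relative to vehicle, where 1.21% of all genes tested were called lower, none rose, and 33 of 34 fold changes were negative. Their median was -1.13, against 0.01 over all genes tested, and in 24 of 34 (70.6%) every ABT-737 library lay below every vehicle library, against 8.47% of all genes. By role, the rises with age took in 3 of 4 sensors, 3 of 3 oligoadenylate synthetases tested, 4 of 4 of the IFIT and PKR group, 3 of 3 ISG15 genes tested, 3 of 3 of the PARP group, both membrane factors, both nuclear body genes, 2 of 4 of the Schlafen and SAMD9L group and 6 of 7 others. The comparisons share the vehicle libraries, so opposite signs in them are not independent.

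By role, the kidney members called lower with ABT-737 were 2 of 4 sensors (Zbp1, Ddx58), 1 of 3 oligoadenylate synthetases tested (Oasl1), 2 of 4 of the IFIT and PKR group (Ifit3, Eif2ak2), 2 of 3 ISG15 genes tested (Isg15, Usp18), 2 of 3 of the PARP group (Parp9, Parp14), 1 of 2 membrane factors (Bst2) and 4 of 7 others (Ifi27l2a, Epsti1, Rtp4, Lgals3bp). The 2 nuclear body genes, Rsad2, Cmpk2 and the 4 Schlafen and SAMD9L genes were not called. Parp14, an ADP-ribosyltransferase, fell by 1.92 on the log2 scale (SE 0.24, adjusted p = 0.000504), and Lgals3bp, a secreted glycoprotein, fell by 1.56 (SE 0.26, adjusted p = 0.0049). Trim25, the ubiquitin ligase of the RIG-I pathway, was the single member with a positive value, 0.12 (SE 0.18, adjusted p = 0.82).

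Isg15, a ubiquitin-like protein joined to other proteins, had 10.3, 11.6, 7.61 and 9.23 CPM in the young kidneys, 69.5, 60.2 and 47.0 in vehicle and 8.73, 13.4 and 15.6 in ABT-737. Every vehicle library lay above all others. Isg15 was 6.06-fold higher in vehicle than in young (log2 2.6, SE 0.21, adjusted p = 1.59e-06) and 4.68-fold lower in ABT-737 than in vehicle (log2 -2.23, SE 0.24, adjusted p = 0.000191). Usp18, the protease that removes ISG15 and restrains the interferon receptor, had 2.14, 4.41, 4.39 and 4.15 CPM in young, 9.42, 9.58 and 8.45 in vehicle and 1.03, 1.49 and 2.6 in ABT-737. All vehicle libraries were above both other groups, and young replicate 1 overlapped the ABT-737 range. Usp18 was 2.35-fold higher in vehicle than in young (log2 1.23, SE 0.31, adjusted p = 0.0149) and 5.25-fold lower with ABT-737 (log2 -2.39, SE 0.42, adjusted p = 0.0068). It passed the filter on low counts through its vehicle libraries alone, with 24, 14 and 18 counts. The filter thus partly set its direction against vehicle.

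Zbp1, a sensor of Z-form nucleic acid, had 2.14, 2.21, 6.73 and 2.77 CPM in young kidneys, 20.0, 26.7 and 10.3 in vehicle and 2.57, 3.96 and 3.63 in ABT-737. The vehicle group did not overlap either other group. Zbp1 was 5.42-fold lower with ABT-737 (log2 -2.44, SE 0.46, adjusted p = 0.0125) after a 5.13-fold higher level in vehicle than in young (log2 2.36, SE 0.39, adjusted p = 0.000777). Oasl1, an oligoadenylate synthetase-like protein, had 1.72, 4.96, 1.46 and 2.77 CPM in young, 18.9, 17.1 and 9.39 in vehicle and 2.06, 2.97 and 3.63 in ABT-737. Here too the vehicle libraries stood apart. Oasl1 was 5.16-fold lower with ABT-737 (log2 -2.37, SE 0.44, adjusted p = 0.0119) and 5.27-fold higher in vehicle than in young (log2 2.40, SE 0.38, adjusted p = 0.000537). Zbp1 and Oasl1 passed the filter on low counts mainly through their vehicle libraries, which partly sets their directions against vehicle.

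Bst2, or tetherin, which holds budding virus at the cell surface, had 43.3, 39.1, 34.8 and 36.9 CPM in young kidneys, 284, 219 and 138 in vehicle and 25.7, 54.9 and 58.1 in ABT-737. Vehicle replicate 5, the lowest of its group, was still above every other library. Bst2 was 4.62-fold lower with ABT-737 (log2 -2.21, SE 0.27, adjusted p = 0.000504) and 5.55-fold higher in vehicle than in young (log2 2.47, SE 0.25, adjusted p = 9.67e-06). Ifit3, a partner of the RNA-binding IFIT1, had 16.7, 16.5, 30.4 and 22.2 CPM in young, 86, 97.1 and 71.4 in vehicle and 15.9, 17.3 and 32.7 in ABT-737. The young and ABT-737 ranges overlapped and vehicle lay above both. Ifit3 was 3.85-fold lower with ABT-737 (log2 -1.94, SE 0.27, adjusted p = 0.00138) and 3.91-fold higher with age (log2 1.97, SE 0.24, adjusted p = 5.65e-05).

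Ifit1 itself, which binds foreign RNA caps, had 2.14, 3.58, 4.10 and 2.77 CPM in young kidneys, 10.2, 7.53 and 5.63 in vehicle and 4.11, 4.45 and 3.63 in ABT-737. Its groups did not overlap between vehicle and ABT-737, but the difference did not pass (log2 -0.95, SE 0.36, adjusted p = 0.222), while the rise from young to vehicle did (log2 1.27, SE 0.32, adjusted p = 0.0165). Ifit1 passed the filter on low counts through its vehicle libraries alone, which partly sets its direction against vehicle. Slfn8, a Schlafen gene, had the widest kidney difference with age, from 2.57, 1.10, 0.878 and 0.462 CPM in young to 8.25, 9.58 and 8.92 in vehicle. That is 7.0-fold (log2 2.81, SE 0.41, adjusted p = 0.000271), and the ABT-737 libraries had 4.11, 2.47 and 5.19 CPM, all below vehicle and overlapping young, with the fall from vehicle not called (log2 -1.17, SE 0.39, adjusted p = 0.163). Slfn8 passed the filter on low counts mainly through its vehicle libraries, with 21, 14 and 19 counts. It had at most 6 counts in a young and 10 in an ABT-737 kidney. The filter thus partly set its direction against vehicle. The plot of single members in kidney and liver shows each library for the genes with the largest called falls and no overlap of groups.

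**Figure D2:**
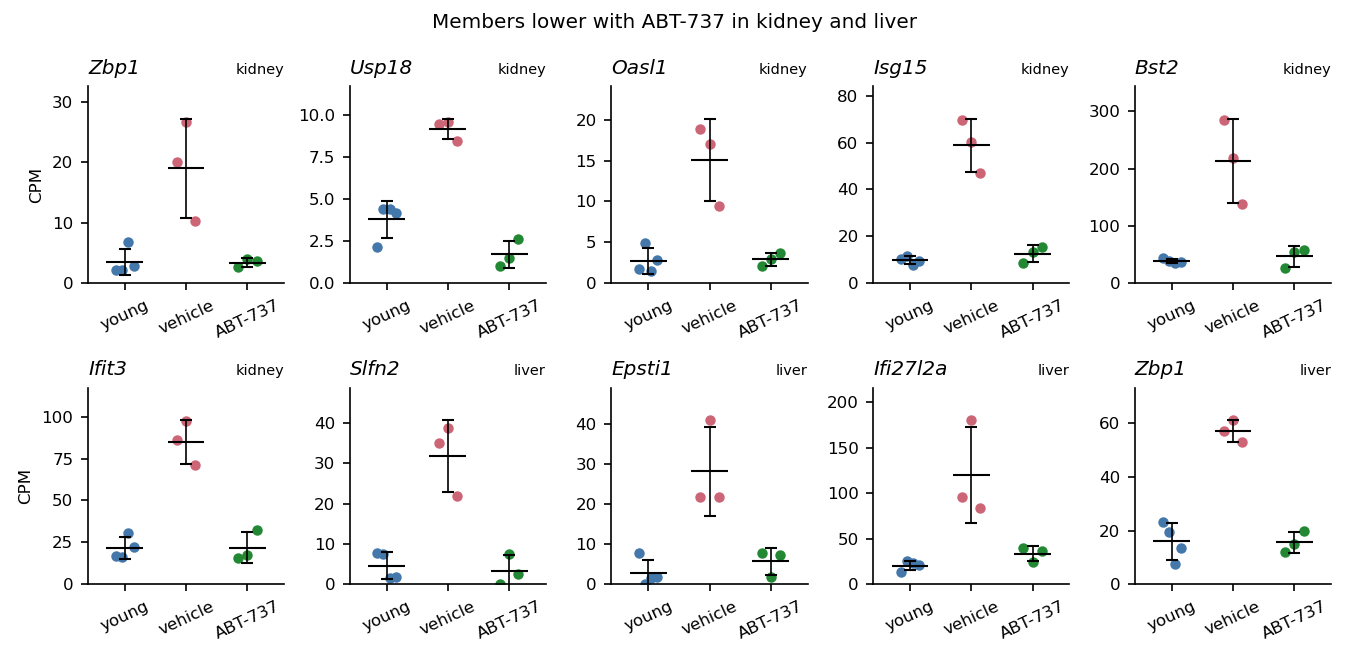
CPM (vertical axis, from 0) of members called lower with ABT-737 in kidney (6 genes) and liver (4 genes), one point per library, with the group mean (line) and SD (bar). Genes were chosen among called members whose groups did not overlap, so in each panel all 3 vehicle libraries lie above all 3 ABT-737 libraries by choice. Liver Isg15 was called but overlapped and is not shown.

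The kidney count rested on single libraries: 9 members were called without vehicle replicate 4, 7 when ABT-737 replicate 3 was left out and 8 when replicate 4 of that group was. In all 3 of these fits Isg15, Bst2, Ifit3, Epsti1, Lgals3bp and Parp14 were called. Of the leukocyte markers in kidney, those of macrophages, T cells and leukocytes at large moved with the members. Macrophage and monocyte markers summed to 223 to 299 CPM in young, 813 to 1370 in vehicle and 327 to 567 in ABT-737, with 8 of 8 called higher in vehicle and 4 of 8 called lower with ABT-737. T cell markers summed to 16.0 to 18.5, 85.6 to 130 and 12.4 to 36.0 CPM in the same order, with 4 of 5 tested called lower with ABT-737. Pan-leukocyte markers summed to 46.6 to 57.1, 180 to 258 and 82.2 to 101 CPM, with 3 of 3 tested called lower with ABT-737. B and plasma cell markers summed to 6.44 to 8.31, 25.4 to 118 and 28.2 to 45.2 CPM. Of these, 2 of 2 tested were called higher in vehicle and 0 lower with ABT-737. The 1 plasmacytoid dendritic cell marker tested went the other way, uncalled (log2 -1.30 with age and 0.73 with ABT-737). Red cell markers summed to 996 to 5857, 11590 to 11630 and 7556 to 11260 CPM, with 5 of 5 called higher in vehicle. No marker of these lists was at 0 in all kidney libraries. Their part in the result was not tested.

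In liver, with fewer counts, the members that could be tested moved in the same directions. Of 16 tested, 12 rose from young to vehicle, where 11.7% of all genes tested were called higher, with a median log2 fold change of 1.38 against 0.02 over all genes. With ABT-737, 5 of 16 fell, where 2.85% of all genes tested were called lower. They were Slfn2, Epsti1, Ifi27l2a, Zbp1 and Isg15. All 16 fold changes were negative, with a median of -1.08 against -0.03 over all genes tested. Slfn2 and Epsti1 passed the filter on low counts through their vehicle libraries alone, with 8, 33 and 17 and with 5, 35 and 17 counts. The filter thus partly set their direction against vehicle. In 9 of 16 every ABT-737 library lay below every vehicle library, against 9.67% of all genes.

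Slfn2, a Schlafen gene of lymphocyte and myeloid quiescence, had 7.75, 7.45, 1.54 and 1.92 CPM in young livers, 34.9, 38.6 and 21.8 in vehicle and 0, 7.59 and 2.48 in ABT-737. The vehicle libraries lay above all others. Slfn2 was 7.17-fold lower with ABT-737 (log2 -2.84, SE 0.64, adjusted p = 0.0198) and 6.44-fold higher in vehicle than in young (log2 2.69, SE 0.52, adjusted p = 0.00171). Epsti1, named for epithelial-stromal interaction, had 7.75, 0, 1.54 and 1.92 CPM in young, 21.8, 41 and 21.8 in vehicle and 7.93, 1.90 and 7.43 in ABT-737. It was the liver member with the largest rise, 10.7-fold (log2 3.42, SE 0.61, adjusted p = 0.000954), and was 5.58-fold lower with ABT-737 (log2 -2.48, SE 0.66, adjusted p = 0.0463). Ifi27l2a, a small interferon-inducible protein, had 13.6, 25.3, 23.0 and 21.1 CPM in young, 96.0, 180.3 and 83.5 in vehicle and 39.6, 24.7 and 37.1 in ABT-737. Its vehicle libraries were likewise above all others, with a fall of 1.90 on the log2 scale with ABT-737 (SE 0.35, adjusted p = 0.00553) and a rise of 2.54 with age (SE 0.32, adjusted p = 7.11e-05).

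Zbp1 had 23.2, 19.4, 7.68 and 13.4 CPM in young livers, 56.7, 60.9 and 52.7 in vehicle and 11.9, 15.2 and 19.8 in ABT-737. The young and ABT-737 ranges overlapped widely. Zbp1 was 3.51-fold lower with ABT-737 (log2 -1.81, SE 0.37, adjusted p = 0.0104) and 3.57-fold higher in vehicle than in young (log2 1.84, SE 0.32, adjusted p = 0.000735). Isg15 had 17.4, 14.9, 24.6 and 21.1 CPM in young, 78.5, 102 and 32.1 in vehicle and 15.8, 11.4 and 34.7 in ABT-737. ABT-737 replicate 5 lay above vehicle replicate 5, so these groups overlapped, and the fall (log2 -1.76, SE 0.47, adjusted p = 0.0481) was at the edge of the threshold. The rise of Isg15 with age was 3.56-fold (log2 1.83, SE 0.40, adjusted p = 0.00417).

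Oasl1 rose with age in liver, from 21.3, 16.4, 6.14 and 1.92 CPM in young to 30.6, 57.4 and 32.1 in vehicle (log2 1.86, SE 0.53, adjusted p = 0.0202), and its fall to 0, 5.69 and 22.3 in ABT-737 was not called (log2 -2.04, SE 0.66, adjusted p = 0.109). Bst2 was high in every liver library, with 269, 206, 353 and 263 CPM in young, 1034, 775 and 529 in vehicle and 444, 508 and 658 in ABT-737. It rose with age (log2 1.5, SE 0.26, adjusted p = 0.000875), and the vehicle and ABT-737 ranges overlapped (log2 -0.53, SE 0.28, adjusted p = 0.392). Ifit1 and Usp18 were too low in liver to be tested: Ifit1 had 5.75 to 9.22 CPM in young, 0, 11.7 and 3.85 in vehicle and 3.96, 3.79 and 2.48 in ABT-737, and Usp18 had 5.81 to 10.8 in young, 0, 24.6 and 14.1 in vehicle and 0, 0 and 2.48 in ABT-737.

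The liver count of 5 with ABT-737 rested on many single libraries. It was 3 without young replicate 3, 3 without young replicate 4, 9 without vehicle replicate 3, 2 without vehicle replicate 4, 2 when ABT-737 replicate 3 was left out and 0 when replicate 4 of that group was. The count of 12 with age was 6 without vehicle replicate 4. Macrophage and monocyte markers summed to 300.1 to 436 CPM in young livers, 1658 to 1853 in vehicle and 237 to 483 in ABT-737, with 6 of 6 tested called lower with ABT-737, and T cell markers summed to 2.98 to 16.9, 91.7 to 144 and 3.96 to 19.8 CPM, with 1 of 1 tested, of 7 listed, called lower. Red cell markers summed to 396 to 1113, 2716 to 3312 and 1163 to 2532 CPM, with 4 of 5 called higher in vehicle. Their part in the result was not tested.

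In lung the members rose with age, and the drop with ABT-737 passed the test for none of them. Of 40 tested, 24 rose from young to vehicle, where 8.15% of all genes tested were called higher, with a median log2 fold change of 1.48 against 0.04. All 4 oligoadenylate synthetases tested rose, as did 3 of 4 ISG15 genes, 2 of 4 sensors, 2 of 4 of the IFIT and PKR group, 2 of 3 of the PARP group and 5 of 9 others. With ABT-737, edgeR called 0 of 40 members, and 0% of all genes tested were called lower. The median was -0.55 against 0.04 over all genes, 34 of 40 values were negative and 12 members had an unadjusted p under 0.05, all lower. In 7 of 40 (17.5%) the groups did not overlap, against 6.63% of all genes. DESeq2 called 1, Oas3, and its share over all genes is not given here.

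The labels do not say whether lung vehicle and ABT-737 libraries with the same replicate number are paired. With the replicate number as a block, 2 members fell with ABT-737, Oas3 (adjusted p = 0.0278) and Epsti1 (adjusted p = 0.0332), and the 24 members called with age became 7, namely Epsti1, Mx1, Oas3, Rsad2, Slfn2, Slfn8 and Zbp1. Young and vehicle libraries share only numbers 3 and 4. Without ABT-737 replicate 5, 5 members were called lower with ABT-737: Epsti1, Ifit1, Isg15, Rtp4 and Slfn2. Shares over all genes in these other fits are not given here, so the counts have no background. The 24 called with age were 15 without young replicate 1, 13 without young replicate 3, 15 without young replicate 4 and 14 without vehicle replicate 5.

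Oas3, a large oligoadenylate synthetase that activates RNase L, had 8.83, 8.34, 5.97 and 15.1 CPM in young lungs, 20.1, 53.6 and 101 in vehicle and 3.86, 16.9 and 18.8 in ABT-737. The vehicle libraries lay above the ABT-737 libraries, by little in vehicle replicate 3. The difference was -2.16 on the log2 scale (SE 0.58, unadjusted p = 0.00219, adjusted p = 0.129), after a rise with age of 2.61 (SE 0.53, adjusted p = 0.00703). Oas2, a relative of the same family, had 10.8, 20.9, 10.3 and 7.28 CPM in young, 34.2, 52.3 and 37.4 in vehicle and 14.2, 2.11 and 21.0 in ABT-737. Its vehicle libraries were above all others (log2 -1.63 with ABT-737, SE 0.51, unadjusted p = 0.00611, adjusted p = 0.154). Isg15 had 18.1, 11.8, 24.4 and 14 CPM in young, 74.5, 69.0 and 46.4 in vehicle and 14.2, 14.8 and 42.5 in ABT-737. ABT-737 replicate 5 stood just under the lowest vehicle library, and the difference was -1.35 (SE 0.41, unadjusted p = 0.00532, adjusted p = 0.146).

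Epsti1 had 14.7, 14.6, 22.2 and 8.84 CPM in young lungs, 87.9, 80.6 and 279 in vehicle and 18.7, 26.3 and 82.3 in ABT-737. ABT-737 replicate 5 overlapped the vehicle range (log2 -1.78, SE 0.56, unadjusted p = 0.00646, adjusted p = 0.156), and the rise with age was 9.88-fold (log2 3.30, SE 0.54, adjusted p = 0.00314). Ifit1 had 6.87, 4.87, 6.51 and 7.28 CPM in young, 60.4, 23.6 and 28.1 in vehicle and 5.80, 9.48 and 44.3 in ABT-737. Its rise with age passed (log2 2.51, SE 0.57, adjusted p = 0.0123) and its difference with ABT-737 did not (log2 -0.82, SE 0.57, adjusted p = 0.5). Usp18 had 20.1, 19.5, 17.9 and 30.7 CPM in young, 45.6, 49.8 and 46.4 in vehicle and 32.2, 24.2 and 26.4 in ABT-737. The vehicle libraries of Usp18 lay above the rest, with a rise of 1.10 with age (SE 0.26, adjusted p = 0.0146) and a difference of -0.77 with ABT-737 (SE 0.28, adjusted p = 0.205).

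Zbp1 had 13.2, 20.9, 11.9 and 8.32 CPM in young lungs and 85.2, 129.5 and 132 in vehicle, 8.59-fold higher (log2 3.10, SE 0.46, adjusted p = 0.00259), with 15.5, 47.4 and 86.3 in ABT-737. Rsad2, or viperin, which makes a chain-terminating nucleotide, had 4.41, 2.78, 3.26 and 6.24 CPM in young and 41.6, 45.0 and 23.9 in vehicle, 8.54-fold higher (log2 3.10, SE 0.41, adjusted p = 0.00257), with 39.9, 13.7 and 27.3 in ABT-737. For Rsad2 the vehicle and ABT-737 ranges overlapped and both lay above young. Mx1, a GTPase against influenza-like viruses whose C57BL/6 allele carries an internal deletion, had 2.45, 2.09, 1.08 and 1.04 CPM in young and 9.39, 9.86 and 23.2 in vehicle, 8.37-fold higher (log2 3.06, SE 0.50, adjusted p = 0.00306), with 5.80, 4.21 and 8.05 in ABT-737. Ifi27l2a had the largest positive value with ABT-737 in lung (log2 0.92, SE 0.55, adjusted p = 0.423), from 348, 340.5 and 263 CPM in vehicle to 169, 1338 and 302, so it rests on ABT-737 replicate 4.

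Macrophage and monocyte markers summed to 860.1 to 1027 CPM in young lungs, 2916 to 7527 in vehicle and 949 to 3551 in ABT-737, and T cell markers to 138 to 172, 596 to 2519 and 180.3 to 457 CPM. Of the macrophage list 6 of 8 were called higher with age and 0 lower with ABT-737. All 7 T cell markers were called higher with age and 0 were called lower with ABT-737. B and plasma cell markers summed to 96.7 to 154, 450 to 828 and 123 to 697 CPM in young, vehicle and ABT-737. Of these, 5 of 6 were called higher with age, and 4 of 6 stood above vehicle with ABT-737, with 0 called. In the ABT-737 lungs adipocyte markers ranged from 31.8 to 1170 CPM and red cell markers from 5071 to 48050. Their part in the results was not tested.

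In skin 13 members were higher in vehicle than in young. Libraries of a group differed most in skin, with a biological coefficient of variation of 34.9%. It was 31.7% in lung, 23.5% in liver and 16.5% in kidney. Of 29 members tested, 13 rose from young to vehicle, where 5.84% of all genes tested were called higher, with a median log2 fold change of 2.26 against 0.05. With ABT-737, edgeR called 0 of 29, and 0% of all genes tested were called lower, with a lowest adjusted p of 0.475 for any member. All 29 values were negative, with a median of -1.19 against 0.04 over all genes, 18 had an unadjusted p under 0.05 and in 14 (48.3%) the groups did not overlap, against 5.81% of all genes. DESeq2 called 6 lower: Bst2, Isg15, Lgals3bp, Rsad2, Rtp4 and Slfn2. The share of all genes that DESeq2 called lower in skin is not given here, so these 6 have no background. The 13 called with age were 0 without young replicate 1, 0 without young replicate 2, 7 without young replicate 3 and 6 without vehicle replicate 5, the library that was highest for most members.

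Isg15 had 2.89, 5.75 and 6.82 CPM in young skin, 22.9, 30.2 and 66.5 in vehicle and 8.30, 9.01 and 6.70 in ABT-737. The vehicle libraries lay above all others. The rise was 7.5-fold (log2 2.91, SE 0.47, adjusted p = 0.0124), and the difference with ABT-737 was -2.32 (SE 0.43, unadjusted p = 0.000334, adjusted p = 0.475). Bst2 had 15.2, 16.1 and 17.7 CPM in young, 72.5, 77.9 and 118 in vehicle and 30.1, 14.9 and 37.2 in ABT-737. Vehicle again stood apart, with a 5.45-fold rise (log2 2.45, SE 0.34, adjusted p = 0.0112) and a difference of -1.70 with ABT-737 (SE 0.32, unadjusted p = 0.000441, adjusted p = 0.475). Slfn2 had 2.17, 5.75 and 10.5 CPM in young, 18.9, 22.8 and 53.5 in vehicle and 7.53, 5.88 and 8.23 in ABT-737. No ABT-737 library of Slfn2 reached the vehicle range (log2 -2.13, SE 0.51, unadjusted p = 0.00199, adjusted p = 0.475).

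Rsad2 had the largest rise among members called in skin, from 0.724, 0.575 and 1.82 CPM in young to 8.79, 36.7 and 35.3 in vehicle. That is 23.5-fold (log2 4.55, SE 0.69, adjusted p = 0.0114), and the ABT-737 libraries, at 6.23, 3.52 and 5.49, lay between the other groups (log2 -2.39 against vehicle, SE 0.52, unadjusted p = 0.0012, adjusted p = 0.475). Slfn8 had 3 counts in the young skins together and 93 in vehicle, a ratio of 19.8 with a 95% counting interval of 6.56 to 97.6. Oasl2 went from 0, 2.30 and 3.18 CPM in young to 10.1, 14.2 and 49.9 in vehicle (log2 3.62, SE 0.84, adjusted p = 0.0291), with 7.26, 4.31 and 10.7 in ABT-737. Rtp4, a chaperone of receptor transport, went from 1.45, 2.88 and 3.64 CPM to 22.4, 15.3 and 51.6 (log2 3.42, SE 0.59, adjusted p = 0.0145), with 9.60, 3.92 and 7.01 in ABT-737. In these 3 genes vehicle replicate 5 was the highest library. Usp18 did not share the pattern, at 5.07, 5.75 and 14.1 CPM in young, 7.03, 12.5 and 17.1 in vehicle and 13.2, 6.66 and 9.45 in ABT-737 (log2 0.53 with age, SE 0.48, adjusted p = 0.472). Ifit1 was too low in skin to be tested, at 1.15 to 2.17 CPM in young, 3.96, 3.92 and 22.4 in vehicle and 6.23, 0.392 and 3.66 in ABT-737.

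Macrophage and monocyte markers summed to 154 to 479 CPM in young skin, 1040 to 2479 in vehicle and 422 to 913 in ABT-737, with 8 of 8 called higher in vehicle and 0 called lower with ABT-737. T cell markers summed to 64.4 to 85.2, 143 to 417 and 119.5 to 181 CPM, with 4 of 4 tested called higher in vehicle. Thy1 made up most of each sum, with 57.9, 76.5 and 65.0 CPM in young, 193, 114 and 358 in vehicle and 121, 106.5 and 155 in ABT-737. Skeletal muscle markers summed to 47040 to 65950 CPM in young, 7362 to 33670 in vehicle and 12190 to 38440 in ABT-737, and red cell markers reached 14710 CPM in 1 vehicle library. Vehicle replicate 5, the highest library for most members, also stood apart in the neutrophil marker S100a9, with 271 CPM against 1.32 and 6.05 in the other vehicle skins, and in the keratinocyte marker Krt1, with 3091 against 321 and 298. Neutrophil markers summed to 0.575 to 0.91 CPM in young, 2.64 to 317 in vehicle and 1.82 to 5.88 in ABT-737, and keratinocyte markers to 13600 to 18120, 16670 to 35390 and 10550 to 17800. Their part in the results was not tested.

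Set side by side over tissues, 6 members were called higher with age in all 4, namely Zbp1, Isg15, Bst2, Slfn2, Epsti1 and Lgals3bp. At most 16 members could be, the number tested in liver. The skin calls fell to 0 without young replicate 1 or without young replicate 2, which would empty this list. Those called lower with ABT-737 in both kidney and liver were Zbp1, Isg15, Ifi27l2a and Epsti1, again of at most 16. Without liver ABT-737 replicate 4 the liver calls fell to 0. The matching shares over all genes were not counted, so neither list was set against a background. In the heat map of fold changes nearly every tested cell of the ABT-737 columns is on the lower side, with calls in kidney and liver. No member tested was called lower in vehicle than in young in any tissue.

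**Figure D3:**
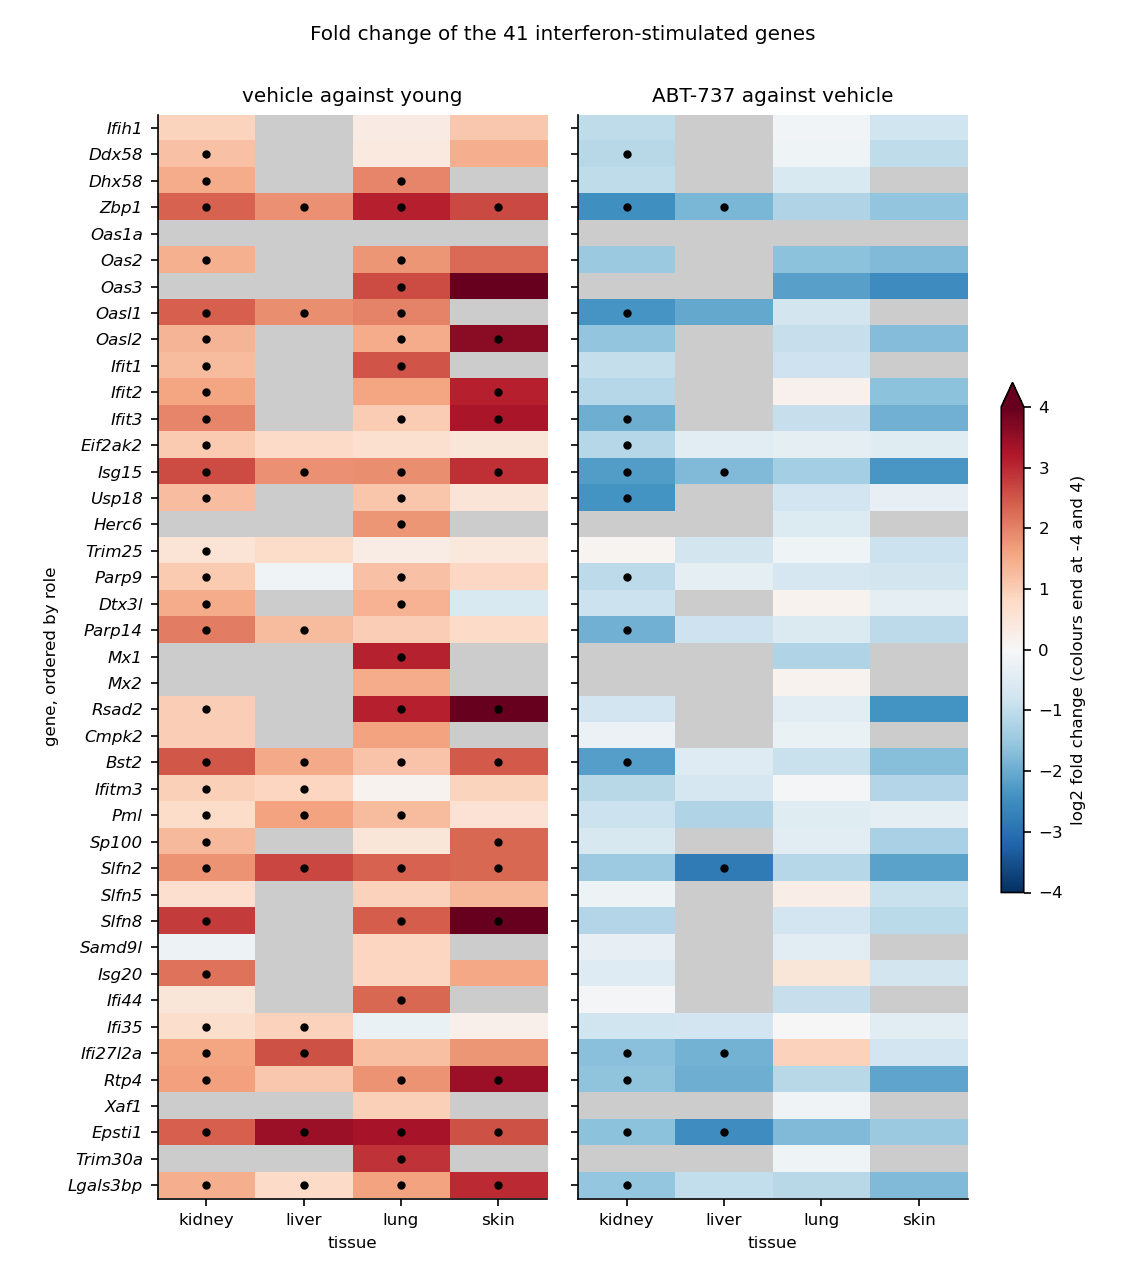
Log2 fold change (colour) of the 41 genes (rows, ordered by role) in 4 tissues (columns), vehicle against young on the left and ABT-737 against vehicle on the right. Dots mark adjusted p under 0.05 in edgeR's quasi-likelihood test and grey marks genes not tested; dots stand at 29, 12, 24 and 13 genes with age and at 14, 5, 0 and 0 with ABT-737.

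Against young mice, the ABT-737 group stood near the young level in kidney and liver. In kidney edgeR called 0 of 34 members, where 1.38% of all genes tested were called higher, with a median log2 difference of 0.09. 7 members had an unadjusted p under 0.05, and DESeq2 called 2 higher, Isg20 and Trim25, with no share over all genes given for DESeq2. In liver 1 of 16 was higher, where 3.13% of all genes tested were, and that was Bst2 (log2 0.98, SE 0.26, adjusted p = 0.0301), with a median over members of 0.12. The Bst2 call was lost without young replicate 1, 2 or 4 or ABT-737 replicate 4 or 5. In skin 0 of 29 were called by edgeR and 0 by DESeq2, where 2% of all genes tested were called higher by edgeR, with 3 at an unadjusted p under 0.05 and a median of 0.58.

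In lung 5 of 40 members stayed above the young level with ABT-737, where 2.15% of all genes tested were called higher, with a median of 0.81 against 0.07 over all genes. They were Rsad2 (log2 2.68, SE 0.42, adjusted p = 0.0231), Trim30a (2.71, SE 0.56, adjusted p = 0.0328), Ifi27l2a (2.13, SE 0.52, adjusted p = 0.0464), Zbp1 (1.90, SE 0.46, adjusted p = 0.0466) and Slfn8 (1.67, SE 0.39, adjusted p = 0.0422). Ifi27l2a had 169, 1338 and 302 CPM in the ABT-737 libraries against 109 to 170.0 in young, and it was not among the 11 members called without ABT-737 replicate 4, the library at 1338. The same library had 450.0 CPM of Adipoq and 686 of Cidec, adipocyte markers that were at most 18.7 and 51.5 in the other ABT-737 lungs, and their part in the result was not tested. The count of 5 was 0 with the replicate block, 0 without any of the 4 young libraries in turn, 3 without vehicle replicate 3, 8 without vehicle replicate 4, 11 when ABT-737 replicate 4 was left out and 1 when replicate 5 of that group was.

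Whether the tissues differ was tested in a joint fit of the 30 kidney, liver and lung libraries, where 40 members could be tested. The ABT-737 effect differed between kidney and liver for 0 members, between kidney and lung for 0 and between liver and lung for 0, where 0.0839%, 0% and 0.29% of all genes tested were called in either direction. At an unadjusted p under 0.05 the counts were 2, 11 and 6, and the lowest adjusted p was 0.184, 0.349 and 0.0666. A lack of calls in lung beside calls in kidney is thus not shown to be a difference between these tissues. Leaving out lung ABT-737 replicate 3 or 5 made 1 member differ, Ifi27l2a, in both comparisons with lung, and leaving out liver vehicle replicate 3 made 2 differ between liver and lung, Ifi27l2a and Usp18.

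The change with age differed for 0 members between kidney and liver, where 0.786% of all genes tested were called, for 3 between kidney and lung, where 8.04% were, and for 2 between liver and lung, where 11.4% were. These shares are near or below those of all genes. At an unadjusted p under 0.05, 6 members differed between kidney and liver, and 1, Rsad2, was called without liver vehicle replicate 5. Rsad2 rose less in kidney than in lung, by 2.12 on the log2 scale (SE 0.56, adjusted p = 0.0188), with 40.3, 42.5, 44.5 and 53.1 CPM in young kidneys against 93.1, 69.1 and 100.5 in vehicle. Trim30a, a regulator of inflammatory signalling, had 1.17 to 2.21 CPM in young kidneys and 2.75, 1.37 and 2.35 in vehicle, but 0.981, 1.39, 5.43 and 2.6 in young lungs and 29.5, 15 and 15.7 in vehicle. Its kidney minus lung difference in the change with age was -2.6 (SE 0.78, adjusted p = 0.0358). Bst2 rose more in kidney than in lung, by 1.32 (SE 0.41, adjusted p = 0.0406), where lung went from 165, 115, 136 and 116 CPM in young to 309.9, 224 and 342 in vehicle.

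Ifi35, a partner of NMI, rose in liver from 32.9, 65.6, 52.2 and 49.9 CPM to 135, 93.7 and 75.8, and in lung stood at 138, 179, 177 and 127 in young and 149, 126 and 109 in vehicle. The liver minus lung difference was 1.22 (SE 0.35, adjusted p = 0.0206). Herc6, the mouse ligase for ISG15, had 0, 5, 4 and 0 counts in the young livers and 0 in all 3 vehicle livers, too few to test there, while in lung it rose from 2.45, 2.78, 4.88 and 4.16 CPM to 16.1, 6.86 and 14.2. The liver minus lung test was called for Herc6 (adjusted p = 0.0329), with a fitted value that depends on the prior count because of the zeros. Of 30 fits that each left out a library, Rsad2 lost its call in 1 (kidney vehicle replicate 4, adjusted p = 0.0568), Ifi35 in 3, Herc6 in 6, Trim30a in 10 and Bst2 in 12, with adjusted p up to 0.13. The plot of levels in 3 tissues sets these genes side by side.

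**Figure D4:**
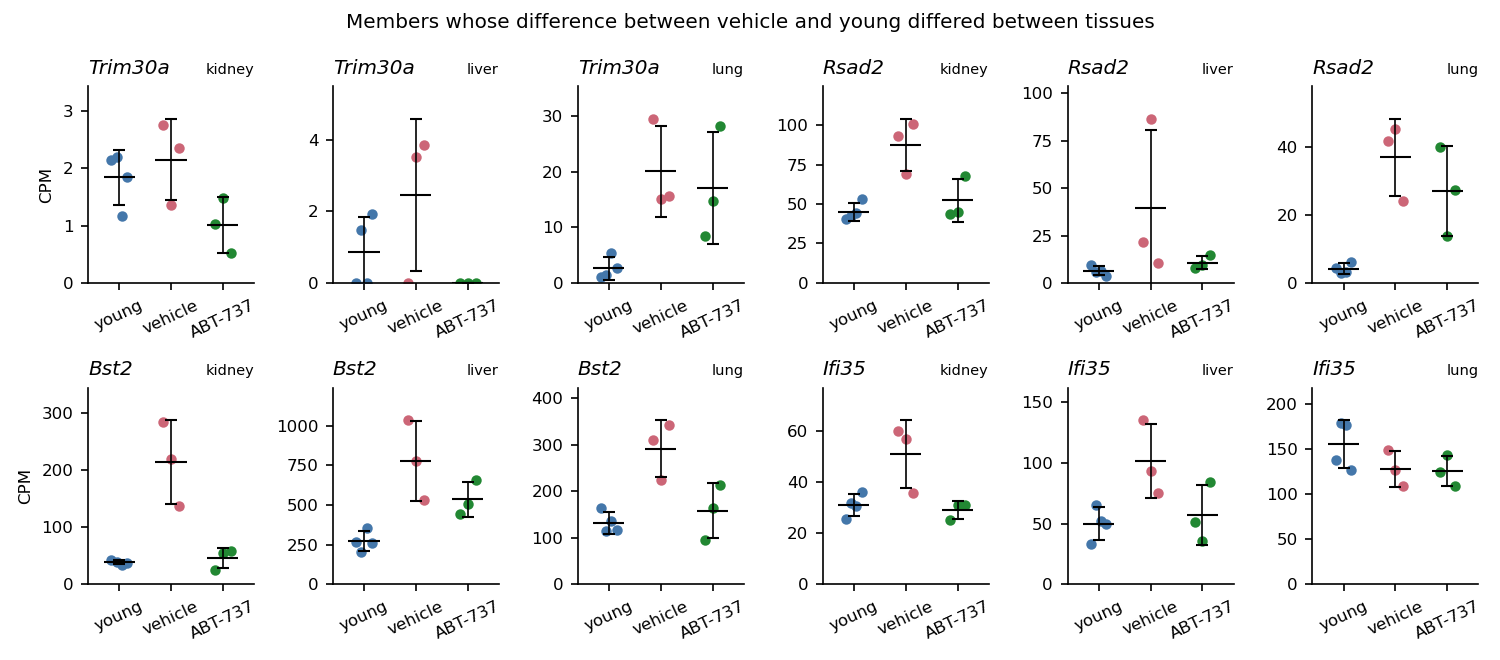
CPM (vertical axis, from 0, scaled within each panel) of Trim30a, Rsad2, Bst2 and Ifi35 in kidney, liver and lung, one point per library, with the group mean (line) and SD (bar, ending at the axis where it would pass 0). Trim30a lies at 0.981 to 5.43 CPM in young and 15 to 29.5 in vehicle lungs but at most at 2.75 in young and vehicle kidneys, and Ifi35 lies between 109 and 179 CPM in both lung groups.

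The level of many members differed between the tissues of young mice. Of 40 members, 21 differed between kidney and liver, where 41.2% of all genes tested did, 24 between kidney and lung, where 64.3% did, and 16 between liver and lung, where 62.2% did. The share among members was above that of all genes for kidney and liver and below it for both comparisons with lung, which was not tested. Bst2 was lowest in kidney and highest in liver, at 34.6 ± 3.33, 372 ± 83.3 and 106 ± 18.2 CPM (mean ± SD of 4 young libraries, jointly scaled) in kidney, liver and lung. Its log2 difference was -3.43 between kidney and liver (SE 0.30, adjusted p = 6.37e-12) and 1.81 between liver and lung (SE 0.28, adjusted p = 9.01e-07). Ifitm3, which blocks fusion of virus with endosomes, was at 53.7 ± 9.49, 500.5 ± 115.5 and 568 ± 71.6 CPM, lowest in kidney, and the difference between liver and lung did not pass (log2 -0.18, SE 0.34, adjusted p = 0.653). Rsad2 ran the other way, at 40.4 ± 4.64, 8.73 ± 3.26 and 3.34 ± 1.25 CPM, highest in kidney (kidney minus lung 3.54, SE 0.41, adjusted p = 3.22e-09).

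Sp100, a nuclear body protein, and Ifit3 were highest in young lung, Sp100 at 6.71 ± 1.30, 5.22 ± 2.33 and 39.1 ± 1.86 CPM and Ifit3 at 19.2 ± 5.80, 7.41 ± 2.20 and 51.6 ± 12.5 CPM in kidney, liver and lung. Between liver and lung the log2 difference was -2.89 for Sp100 (SE 0.42, adjusted p = 3.16e-07) and -2.78 for Ifit3 (SE 0.44, adjusted p = 1.9e-06). Samd9l, a restriction factor of the SAMD9 family, had 495 counts in the young kidneys, 122 in the young lungs and 0 in the young livers, at least 34.7-fold and 13.1-fold lower in liver with a floor of 3 counts over the group.

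The rest of the pathway was read from a list of 41 other genes, from interferons to feedback inhibitors. Ligands were near 0: Ifna1, Ifna2, Ifna4, Ifnb1, Ifne, Ifnl2 and Ifnl3 had no counts in any library of the 4 tissues and Ifnk had 1 in a young lung, which at these depths does not show absence. Ifng, the type II interferon of T and NK cells, was tested in lung alone, with 1.47, 1.39, 0.543 and 0.52 CPM in young, 20.1, 8.15 and 71.4 in vehicle and 0.644, 1.05 and 14.3 in ABT-737. It rose with age (log2 5.02, SE 0.94, adjusted p = 0.00526), and the ABT-737 group overlapped vehicle (log2 -2.43, SE 0.83, adjusted p = 0.185).

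Of the pathway genes tested, 12 of 30 rose with age in lung, 13 of 28 in kidney, 8 of 30 in skin and 7 of 20 in liver, against 8.15%, 7.75%, 5.84% and 11.7% of all genes tested, and none was called lower. With ABT-737, 5 of 28 fell in kidney (among them Stat2, Irf1, Irf7 and Irf8), 5 of 20 in liver (among them Irf1, Irf7, Socs3 and Ptpn6), 0 of 30 in lung and 0 of 30 in skin, with 16 in lung and 10 in skin at an unadjusted p under 0.05. Of all genes tested, 2.85% were called lower in liver, 1.21% in kidney and 0% in skin and lung. No interferon receptor was called lower with ABT-737 by edgeR in any tissue, with a median log2 difference of -0.74 over the 4 tested in liver, all negative, and of -0.20 over the 6 tested in kidney. At an unadjusted p under 0.05 Ifngr1 and Ifngr2 were lower in liver, Ifnar2 and Il10rb in lung and Il10rb in kidney. With age Ifngr1 (log2 1.21, SE 0.20, adjusted p = 0.000665) and Ifngr2 rose in kidney and Ifnar2 and Il10rb in skin. Feedback inhibitors rose most in lung, where 4 of 4 were called with age, Socs1 by 3.69 (SE 0.68, adjusted p = 0.00485).

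Irf7, the factor that amplifies type I interferon, had 20.6, 21.2, 24.6 and 26.3 CPM in young kidneys, 196, 248 and 101 in vehicle and 30.8, 33.6 and 51.4 in ABT-737 (log2 -2.23 with ABT-737, SE 0.27, adjusted p = 0.000504). In liver it had 81.3, 103, 114 and 74.8 CPM in young, 524, 712 and 325 in vehicle and 103, 100.5 and 230.2 in ABT-737 (log2 -1.84, SE 0.35, adjusted p = 0.00619). In both tissues no ABT-737 library reached the vehicle range. In lung it had 44.6, 27.1, 38.0 and 30.7 CPM in young, 133, 185 and 181 in vehicle and 34.8, 64.3 and 99.8 in ABT-737 (log2 -1.32, SE 0.34, adjusted p = 0.127), and in skin 5.07, 5.18 and 12.7, then 28.6, 37.4 and 180.4, then 18.2, 24.3 and 25.6 (log2 -1.87, SE 0.65, adjusted p = 0.527). The groups did not overlap in lung or skin either, though neither fall passed. The rise with age passed in all 4 tissues, at 2.97, 2.47, 2.24 and 3.38 on the log2 scale in kidney, liver, lung and skin.

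Irf9, the DNA-binding subunit of the complex at the ISRE, changed less. It had 19.7, 25.4, 34.8 and 20.8 CPM in young kidneys, 77.3, 95.8 and 56.3 in vehicle and 30.8, 39.1 and 49.8 in ABT-737 (log2 1.57 with age, SE 0.23, adjusted p = 0.000237, and -0.93 with ABT-737, SE 0.24, adjusted p = 0.0769). In liver it had 47.6 to 54.2 CPM in young, 122, 73.8 and 73.2 in vehicle and 55.5, 68.3 and 109 in ABT-737, with a difference of 0.78 with age (SE 0.27, adjusted p = 0.0469) and -0.11 with ABT-737 (SE 0.29, adjusted p = 0.917). The Irf9 call with age in liver was lost in 4 of 6 alternatives (adjusted p up to 0.275) and in 7 of 10 fits that left out a library (up to 0.118), these being each of the 4 young libraries, vehicle replicates 3 and 4 and ABT-737 replicate 4. The liver vehicle and ABT-737 libraries of Irf9 overlapped. In lung the vehicle libraries had 148, 224 and 137 CPM against 84.8 to 131 in young and 88.2, 62.2 and 94.8 in ABT-737 (log2 -1.04 with ABT-737, SE 0.29, adjusted p = 0.129), and in skin 77.3, 71.5 and 70.3 against 39.1 to 51.9 and 61.2, 34.5 and 58.2 (log2 -0.51, SE 0.23, adjusted p = 0.634). The plot of the regulators shows each library of Irf7 and Irf9.

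**Figure D5:**
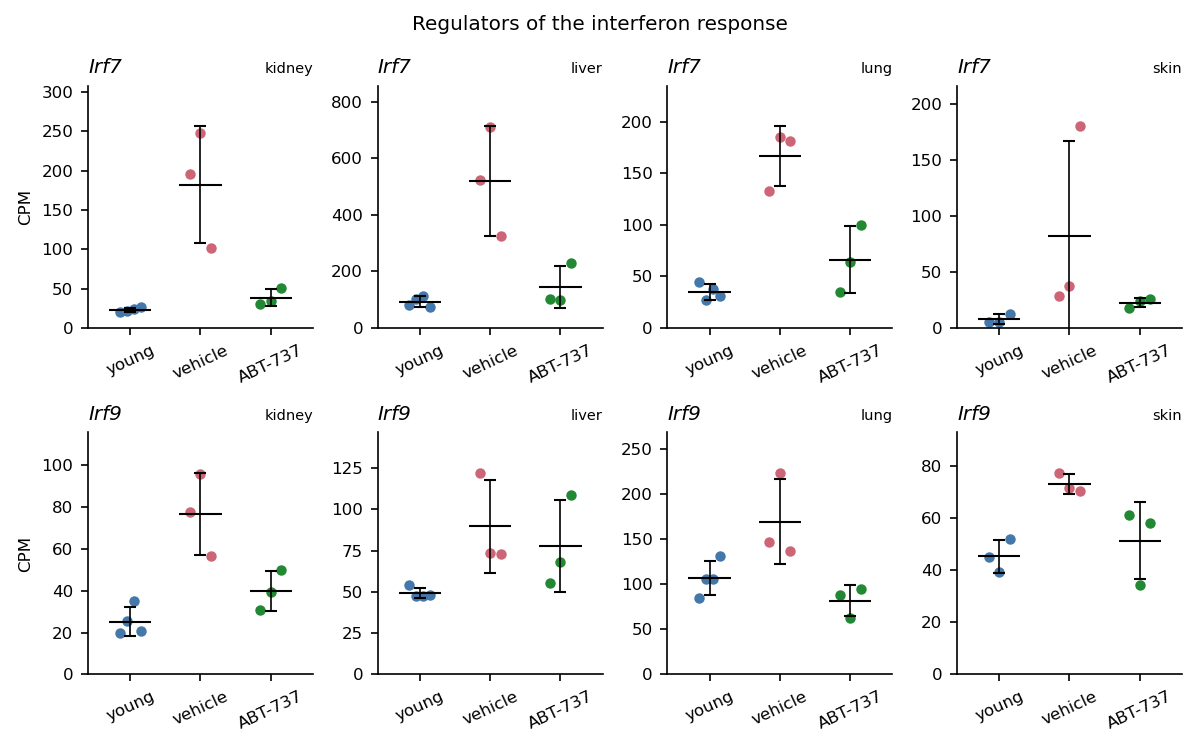
CPM (vertical axis, from 0, scaled within each panel) of Irf7 and Irf9 in the 4 tissues, one point per library, with the group mean (line) and SD (bar, ending at the axis where it would pass 0). For Irf7 all 3 vehicle libraries lie above all ABT-737 libraries in each tissue, while for Irf9 in liver vehicle (73.2 to 122 CPM) and ABT-737 (55.5 to 109 CPM) overlap.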

How the data were processed

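RNA from kidney, liver, lung and skin of Prf1-/- mice was measured by bulk MARS-seq, and the authors deposited raw counts per gene without normalization, in 1 table for kidney, liver and lung (RefSeq transcripts) and 1 for skin (Ensembl transcripts). The submitters' processing notes name HISAT 0.1.5, HOMER, bcl2fastq and mm10. Whether reads with the same molecular barcode were collapsed is not given in the sources used here, so intervals and floors cover counting error only. Members and lists were chosen with earlier results of these data known. The tests used edgeR 4.0.16 under R 4.3.3, with filterByExpr, TMM and the quasi-likelihood test with the 3 groups of a tissue in 1 fit, adjusted by Benjamini-Hochberg over all genes tested. A joint fit of 9 groups (30 libraries) tested differences between kidney, liver and lung. The method was tested on simulated data. Fold changes are edgeR's fitted values.

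Values in every library were given for the 6 members with the largest called change with ABT-737 per tissue with groups that did not overlap (4 by unadjusted p where none was called), the 4 with age, members called for a tissue difference, and Ifit1, Isg15, Usp18, Irf7 and Irf9. 1 further gene of the pathway list is not reported here. Rsad2, Bst2, Isg15 and Ifit3 promoters, and further members given in single sentences, were chosen after their values were seen. Alternatives were DESeq2 1.42.0, its size factors, other filters, a log2 threshold of 1, the compared groups alone, the replicate number as a block and each library left out (limma 3.58.1 for the joint block). In lung the deviations of same-numbered vehicle and ABT-737 libraries from their group means correlated at 0.176, 0.296 and 0.427, each over 0.1. Vehicle replicate 4 and ABT-737 replicate 3, unlike in number, correlated at 0.302. These values therefore cannot show that the numbers are pairs.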

Additional observations from a re-analysis of the deposited data

Results flagged for a closer look

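Of 93 groups of 4 young libraries, 4 held a library far from the other 3 by Dixon's criterion, and chance marks about 1 in 20. Zbp1 in kidney young replicate 3 was at 6.73 CPM, with the others at 2.14 to 2.77. Usp18 in kidney young replicate 1 was at 2.14 CPM, with the others at 4.15 to 4.41. Isg20, an exonuclease, was at 3.86 CPM in kidney young replicate 1, with the others at 1.38 to 1.76. Xaf1, a proapoptotic protein, was at 2.71 CPM in lung young replicate 3, with the others at 6.24 to 6.95.

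For 5 members the change from young to vehicle differed between tissues in the joint edgeR fit. Of all genes tested, 8.04% differed between kidney and lung and 11.4% between liver and lung. The members' shares are near or below these. The kidney minus lung difference was -2.60 on the log2 scale for Trim30a (adjusted p = 0.0358), -2.12 for Rsad2 (adjusted p = 0.0188) and 1.32 for Bst2 (adjusted p = 0.0406). The liver minus lung difference was 1.22 for Ifi35 (adjusted p = 0.0206) and a fitted -7.95 for Herc6 (adjusted p = 0.0329), the latter against liver vehicle libraries with 0 counts and so no measure of size. The call was lost without kidney vehicle replicate 4 for Rsad2, and without liver vehicle replicate 3, liver young replicate 1 or lung vehicle replicate 5 for Ifi35. For Herc6 it was lost without liver vehicle replicate 4 or 5, liver young replicate 2 or 3, or lung vehicle replicate 3 or 5. For Trim30a it was lost without kidney vehicle replicate 4 or 5, kidney young replicate 1, 2 or 4, lung vehicle replicate 3 or 5, or lung young replicate 1, 2 or 4, and for Bst2 without any kidney young library, kidney vehicle replicate 3 or 4, any lung vehicle library, or lung young replicate 1, 2 or 3.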

How the results depend on the processing

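The 85 single-gene results kept direction and side of the threshold in 371 of 420 alternatives, with 29 weaker, 19 stronger and 1 reversed, Usp18 in skin with age (-0.26 with the replicate block). In 1113 fits without a library, 1008 kept both, 95 were weaker, 6 stronger and 4 reversed. Those were Irf9 in liver with ABT-737 (3 fits, 0.010, 0.064 and 0.11, range -0.42 to 0.11) and Usp18 in skin with ABT-737 (0.0058 without vehicle replicate 5, range -0.61 to 0.0058). The causes were not tested.

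Counts of members called moved by over 1.5 times as follows. Shares over all genes are not given for these settings. With no filter beyond 1 count, ABT-737 against vehicle gave 24 in kidney, 4 in skin, 11 in liver and 2 in lung, and ABT-737 against young 2 in kidney, 8 in lung and 2 in skin, with a liver median of -0.0035. With at least 10 counts in every library, fewer genes were tested: age gave 17 in kidney (median 1.16), 2 in skin (0.81), 3 in liver (0.81) and 14 in lung (1.16), ABT-737 against vehicle 0 in liver, and ABT-737 against young 0 in liver and 1 in lung, with a skin median of 0.028. With only the compared groups, kidney gave 9 and liver 2 for ABT-737 against vehicle, and kidney 2 against young. DESeq2 gave 1 in lung and 6 in skin for ABT-737 against vehicle, and 2 in kidney and 9 in lung against young. A log2 threshold of 1 left 0 in liver against young.

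With the replicate block, age gave 13 in kidney, 0 in skin (median 1.39), 7 in lung (median 1.12) and 4 in liver, ABT-737 against vehicle 0 in liver and 2 in lung, and ABT-737 against young 0 in liver and 0 in lung, with medians of 0.28 in kidney and -0.018 in skin. In the other results named above the block kept the count within 1.5 times. The labels do not say whether the numbers pair libraries in any tissue. Only in lung were the correlations of same-numbered vehicle and ABT-737 libraries all positive, at 0.176, 0.296 and 0.427. Vehicle replicate 4 and ABT-737 replicate 3 of lung, unlike in number, reached 0.302, so these values cannot show pairs. In the joint fit, 10 counts in 3 libraries of each tissue left 1 difference in the change with age between kidney and lung and 1 between liver and lung, and 10, 10 and 6 differences between young kidney and liver, kidney and lung, and liver and lung.

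Leaving out each library in turn, counts ran from 7 to 17 (kidney), 0 to 9 (liver), 0 to 5 (lung) and 0 to 0 (skin) for ABT-737 against vehicle, 22 to 33, 6 to 14, 13 to 29 and 0 to 15 for age, and 0 to 1, 0 to 1, 0 to 11 and 0 to 1 for ABT-737 against young. Medians ran from -1.48 to -1.05 in kidney for ABT-737 against vehicle, 1.36 to 1.54 in lung and 1.68 to 2.56 in skin for age, and -0.021 to 0.24 in kidney, 0.039 to 0.46 in liver and 0.41 to 1.02 in lung for ABT-737 against young. Tissue differences in the change with age ran from 0 to 1 (kidney and liver), 0 to 5 (kidney and lung) and 0 to 4 (liver and lung), in the ABT-737 effect 0 to 1 (kidney and lung) and 0 to 2 (liver and lung), and young kidney against liver 13 to 22. Counts of 1 in kidney against young came without young replicate 1 or vehicle replicate 4, and in skin without vehicle replicate 3. The stricter ISRE was found in 12 windows in place of 16. Depth limits liver most, where 1 vehicle library held 223957 counts.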
